A study of Mus musculus with 18 samples.

Results

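The cytosolic ribosomal protein genes were described in synovial macrophages of mice. All gene symbols of the deposited counts that match Rpl or Rps followed by a digit were taken, together with Rpsa, Rplp0, Rplp1 and Rplp2, and the Rps6k kinases and symbols ending in -ps were left out. This gave 88 members of 24421 gene symbols. They were 43 proteins of the large subunit, 31 of the small subunit, 3 proteins of the P stalk, 10 paralogs or retrogene copies of other members, and Rps19bp1, whose product binds a ribosomal protein but is none itself. The members lay on 19 chromosomes, 4 of them on the X chromosome.

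Bulk RNA of synovial macrophages from adult WT C57BL/6 mice of both sexes was sequenced after sorting into 3 subsets. LYVE1+CX3CR1+ cells were gated as negative for MHCII and Ly6C, and the other gates were MHCII+CD11c- and MHCII+CD11c+. Each subset came from untreated mice and from mice culled 8 h after intravenous immune complexes (IC) of ovalbumin and rabbit anti-ovalbumin antibody. All 6 groups had the same background and the same collagenase digestion of the synovium, and each had 3 libraries, 18 in all. Each library was a pool of 3 mice, so an animal's own value cannot be seen, and the spread between libraries is a spread between pools.

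Cytosolic ribosomes consist of a small subunit, which reads the mRNA, and a large subunit, which joins the amino acids. Each subunit is ribosomal RNA with a set of ribosomal proteins made in nearly equal amounts, and the mRNAs of these proteins are among the most abundant of any cell. Most of them begin with a C and a run of pyrimidines, the 5′ terminal oligopyrimidine (TOP) tract, through which mTORC1 and LARP1 control their translation and stability. In macrophages, growth signals and activation are known to act on ribosome production through mTORC1 and Myc.

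The start sites of members are shown because the TOP tract is the sequence that the family shares. RefSeq promoters of GRCm38.p6 were matched by symbol for 67 of the 88 members. The lines below give 15 bases before and 15 bases after the RefSeq start on the coding strand, with the tract in capitals. Rps6, Rpl28, Rps18 and Rps27 carried a tract. Rpsa, with the largest difference between subsets among members that passed the test given below, carried none in this window.
Rps6, chr4:86857353-86857382, minus strand: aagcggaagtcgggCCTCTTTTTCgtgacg
Rpl28, chr7:4792950-4792979, plus strand: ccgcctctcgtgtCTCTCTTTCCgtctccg
Rps18, chr17:33955651-33955680, minus strand: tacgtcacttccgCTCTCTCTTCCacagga
Rps27, chr3:90213634-90213663, minus strand: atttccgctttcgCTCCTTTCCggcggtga
Rpsa, chr9:120127751-120127780, plus strand: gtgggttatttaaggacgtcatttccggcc
A tract was scored as a C followed by at least 5 pyrimidines, on the coding strand, with its first base within 5 bases of the start. It was found in 27 of the 67 matched members (40.3%), in 11.9% of all genes with a promoter, in 12.7% of the tested genes and in 5.80% of mitochondrial ribosomal protein genes. The letters CTTTCC, looked for on the coding strand between 20 bases before and 50 after the start, were in 29.9% of members, 3.94% of the tested genes and 3.79% of all genes, and they can lie within a tract. The letters CCGGAAG, found within the binding motif of ETS factors and looked for on both strands, were in 38.8% of members, 37.7% of mitochondrial ribosomal protein genes, 21.6% of the tested genes and 9.93% of all genes. A match is a description of these windows, and the start that a macrophage uses may lie elsewhere.

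The libraries held 245903 to 2172358 counts, with a median of 1526179.5, and 11.0% to 13.1% of the counts of the untreated groups, as group means, fell on Rn45s, the precursor of ribosomal RNA. The macrophage marker list was detected in full in every group (10 of 10 genes). Lyve1 was at 2171 to 2563 CPM (counts scaled to the effective size of the library) in the untreated LYVE1+CX3CR1+ libraries, 702 to 882 in MHCII+CD11c- and 329 to 439 in MHCII+CD11c+. Itgax, which encodes CD11c, was at 2.33 to 13.3 CPM in untreated MHCII+CD11c- and 240 to 304 in MHCII+CD11c+. One library stood apart. MHCII+CD11c- IC replicate 2 was the smallest, with Rn45s at 16.3% of its counts, Lyve1 at 516 CPM against 1841 and 2290 in its group, and 1.48% of counts on nuclear-retained transcripts such as Malat1, against 0.629% and 0.643%. Counts of calls and medians over the members that rest on this library are given with and without it. The share of nuclear-retained transcripts also moved with subset and treatment. It was 1.12% to 1.49% in untreated LYVE1+CX3CR1+, 1.23% to 1.44% in MHCII+CD11c- and 0.783% to 1.04% in MHCII+CD11c+.

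The family took a different share of the library in each subset. In untreated LYVE1+CX3CR1+ cells the 88 members held 1.96%, 2.34% and 1.99% of all counts, a mean of 2.10% ± 0.21 (SD, n = 3). In MHCII+CD11c- cells the share was 2.99%, 3.04% and 2.92% (mean 2.98% ± 0.062, SD, n = 3), and in MHCII+CD11c+ cells 3.66%, 3.68% and 3.88% (mean 3.74% ± 0.12, SD, n = 3). The untreated subsets did not overlap, with LYVE1+CX3CR1+ lowest and MHCII+CD11c+ highest. After IC the share was 2.34%, 2.48% and 2.09% in LYVE1+CX3CR1+ cells (mean 2.31% ± 0.19, SD, n = 3) and 3.29%, 3.28% and 3.39% in MHCII+CD11c+ cells (mean 3.32% ± 0.060, SD, n = 3). These IC groups lay closer to each other than the untreated ones, and still did not overlap. In MHCII+CD11c- cells the share after IC was 2.75%, 3.48% and 2.75%, and the highest value was that of the library that stood apart. The 95% Wilson intervals of the shares spanned 1.94% to 1.99% for the lowest library and 3.41% to 3.56% for the smallest library, and they cover counting error only. The 77 mitochondrial ribosomal protein genes held a mean of 0.148%, 0.135% and 0.137% in the same 3 untreated subsets. A total over all RNA cannot tell fewer cells of a type from less RNA per cell.

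**Figure D1:**
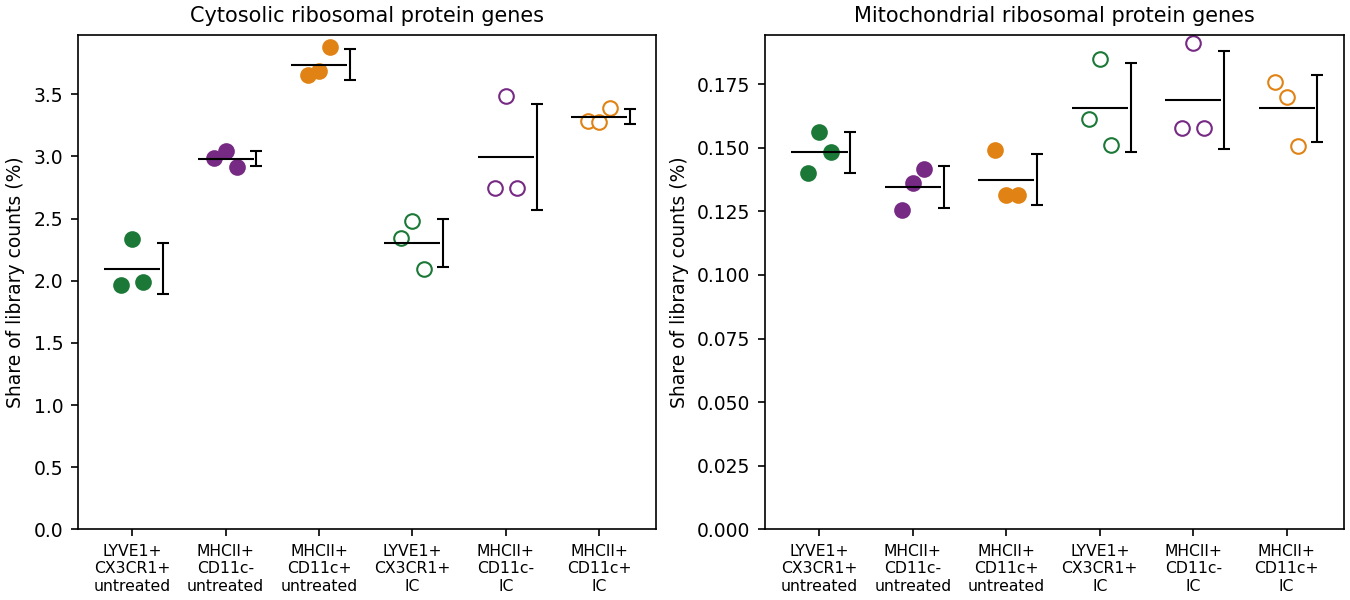
Share of all counts of a library (percent, y axis) on the ribosomal protein genes, by subset and treatment (x axis). Filled points are untreated and open points IC libraries, lines are group means and bars the SD of 3 libraries. The untreated groups range from a mean of 2.10% in LYVE1+CX3CR1+ to 3.74% in MHCII+CD11c+ without overlap, and the 3 MHCII+CD11c+ IC libraries sit below the untreated ones.

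The pattern ran through the family. In untreated cells the mean CPM of all 77 core members (those of the large subunit, small subunit and P stalk) had the order LYVE1+CX3CR1+, MHCII+CD11c-, MHCII+CD11c+ from low to high. After IC 66 of the 77 kept this order, 8 had MHCII+CD11c- highest and 3 had MHCII+CD11c- lowest. Without MHCII+CD11c- IC replicate 2 these counts were 67, 1 and 9. The share of all tested genes with this order is not given, so these counts have no background beside them. Whether neighbours in the order differ beyond their spread was tested per gene as given below.

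Of the 88 members, 85 passed the filter on low counts among 10550 tested genes. The members that did not pass were Rpl10l, with 0 counts in all libraries, and Rpl39l and Rpl3l, with 3 counts each in all libraries together. Rpl3l is known as the muscle form of Rpl3, and Rpl10l and Rpl39l as testis forms. Per kilobase of transcript, the highest mean levels over all 18 libraries were those of Rplp2 (1455 CPM per kb), Rplp1 (1234), Rpl26 (1082), Rps28 (1026) and Rpl41 (1018). Rplp1 and Rplp2 form the flexible ends of the stalk that recruits elongation factors, and more than one copy of each sits on a ribosome. The lowest mean CPM among tested members, without correction for length, were 10.8 for Rps19bp1, 14.5 for Rps4l, 15.2 for Rpl22l1 and 21.4 for Rps27l.

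The widest gap was between untreated LYVE1+CX3CR1+ and MHCII+CD11c+ cells. Of the 85 tested members, 80 were lower in LYVE1+CX3CR1+ and 0 were higher (edgeR's quasi-likelihood test, Benjamini-Hochberg adjusted p under 0.05). Over all tested genes, 12.4% were lower and 9.48% higher. DESeq2 also called 0 higher and 80 lower, where it called 1065 higher and 1376 lower of all 17957 genes with counts. At an unadjusted p under 0.05 edgeR gave 0 higher. The share of all tested genes at that unadjusted threshold is not given for the comparisons between subsets. The median member differed by -0.91 on the log2 scale, which is 1.88-fold lower, and the median of all tested genes was -0.02. The 3 libraries of the groups did not overlap, with LYVE1+CX3CR1+ lower, for 80 members, against 21.6% of all tested genes.

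Among small subunit proteins, all 31 were lower in LYVE1+CX3CR1+ than in MHCII+CD11c+, with a median of -0.97. Rpsa, a protein of the small subunit also known as the laminin receptor precursor, was at 705, 715 and 582 CPM in LYVE1+CX3CR1+ and at 1629.7, 1571 and 1733 CPM in MHCII+CD11c+. Every LYVE1+CX3CR1+ library lay below every MHCII+CD11c+ library, and the difference was -1.30 ± 0.15 (log2, SE), 2.47-fold, with an adjusted p of 2.09e-07, the largest of the family. Rps6, the substrate of the S6 kinases downstream of mTORC1, was at 375, 382 and 336 CPM against 813, 830.3 and 897 CPM. The groups did not overlap and differed by -1.22 ± 0.15 (adjusted p = 6.31e-07). Rps7 differed by -1.28 and Rps3a1 by -1.20. The smallest called difference was that of Rps29, a zinc-binding protein of the small subunit head, at 253, 243 and 219.7 CPM against 302, 352 and 319.7 CPM. Its groups did not overlap either, and the difference was -0.45 ± 0.15 (adjusted p = 0.0324). Rps21 (-0.57) and Rps14 (-0.64) were the next smallest.

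All 43 large subunit proteins were lower as well, with a median of -0.91. Rpl28, a protein that is found in animal but not in budding yeast ribosomes, was at 149, 161 and 164 CPM in LYVE1+CX3CR1+ and at 365, 365 and 373 CPM in MHCII+CD11c+. The groups did not overlap, and the difference was -1.22 ± 0.18 (adjusted p = 8.97e-06). Rpl4, which lines the tunnel through which the new protein leaves, was at 372, 363 and 372 CPM against 796, 857 and 852 CPM. It differed by -1.18 ± 0.15, without overlap. Rpl3, which lies close to the site of peptide bond formation, was at 520.2, 531 and 525 CPM against 803, 827 and 857 CPM. These groups were also separate, with a smaller difference of -0.66 ± 0.13. Rpl9 differed by -0.64.

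The 3 P stalk genes were lower too. Rplp0, the base of the stalk, was at 699, 713 and 600.3 CPM in LYVE1+CX3CR1+ and at 1383, 1287 and 1422 CPM in MHCII+CD11c+, a difference of -1.02 ± 0.15 (adjusted p = 7.58e-06). Rplp2 differed by -0.78 and Rplp1 by -0.66, and each of these pairs of groups was without overlap.

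**Figure D2:**
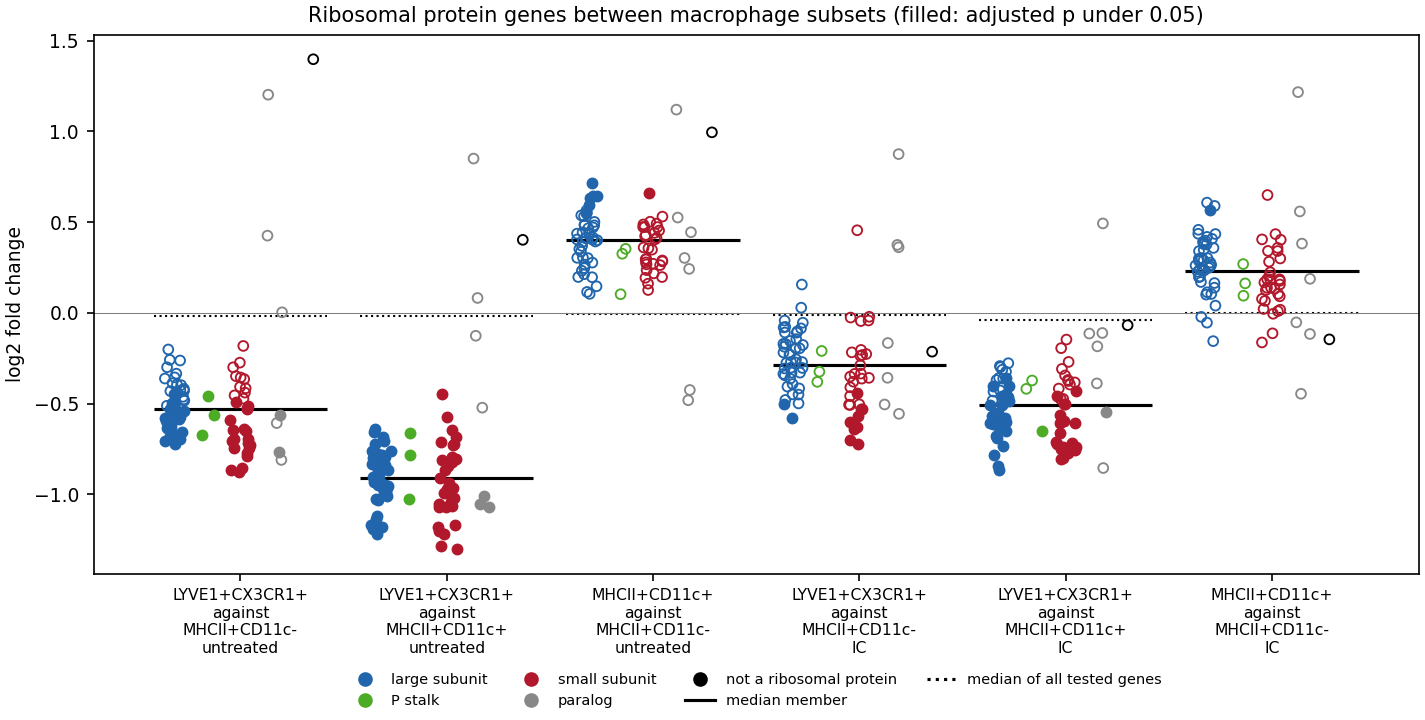
Log2 fold change of each of the 85 tested members between subsets, untreated and after IC, one point per gene and coloured by class. Filled points have an adjusted p under 0.05, the solid line is the median member and the dotted line the median of all tested genes. In untreated cells the medians are -0.53, -0.91 and 0.40, away from the dotted line, and after IC they are -0.29, -0.50 and 0.23.

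Markers of other cell types moved with the subsets. Their summed levels are given in CPM of the library total, without scaling factors. The summed level of 7 dendritic cell markers was 7.22 to 9.94 CPM in untreated LYVE1+CX3CR1+, with 5 of 7 detected and Flt3 and Ccr7 at 0, 109 to 155 in MHCII+CD11c- and 232 to 420 in MHCII+CD11c+, with 7 of 7 detected in both. The summed level of 6 B cell markers was 0 to 1.67, 199 to 294 and 59.8 to 90.2 CPM in the same order, with 2, 5 and 5 detected and Jchain at 0 throughout. That of the neutrophil markers was 18.1 to 25.5, 756 to 1668 and 123 to 600 CPM, with 6, 9 and 9 of 9 detected and S100a8, Camp and Ngp at 0 in LYVE1+CX3CR1+. The summed level of 8 T cell and natural killer cell markers was 3.33 to 9.07, 3.58 to 13.6 and 4.60 to 24.7 CPM, with overlap. Of these 8, 2, 2 and 4 were detected, and the T cell genes Cd3e and Cd3g were at 0 in every group. The part of these markers' cells in the ribosomal protein differences was not tested. The dendritic list had the same order of subsets as the members, and the B cell and neutrophil lists were highest in MHCII+CD11c-. The macrophage list ran in the reverse order of the members, without overlap. Its 10 genes summed to 14062 to 14919 CPM in untreated LYVE1+CX3CR1+, 10362 to 12421 in MHCII+CD11c- and 6906 to 7585 in MHCII+CD11c+. The part of this in the values of the members was not tested either.

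Against MHCII+CD11c- cells, untreated LYVE1+CX3CR1+ cells were lower in 46 of the 85 tested members and higher in 0, where 7.12% of all tested genes were lower and 4.32% higher. At an unadjusted p under 0.05 edgeR gave 2 members higher and 70 lower, with no share of all tested genes given at that threshold. DESeq2 called 0 higher and 57 lower, against 527 higher and 855 lower of all 17957 genes with counts. The median member differed by -0.53, with quartiles of -0.65 and -0.42, and the median of all tested genes was -0.02. For 73 members every LYVE1+CX3CR1+ library was lower than every MHCII+CD11c- library, against 14.6% of all tested genes. The call was made for 20 of 31 small subunit genes (median -0.59), 21 of 43 large subunit genes (median -0.51) and 3 of 3 P stalk genes. Without 1 library the count fell to between 19 and 35, to 19 without LYVE1+CX3CR1+ untreated replicate 3, 23 without its replicate 1, 30 without MHCII+CD11c- untreated replicate 1 and 29 without its replicate 2.

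The largest differences were in small subunit genes. Rps7 was at 259, 251 and 218 CPM in LYVE1+CX3CR1+ and at 480.2, 443 and 413 CPM in MHCII+CD11c-, a difference of -0.88 ± 0.19 without overlap. Rps9, which acts in the accuracy of decoding, was at 469, 449 and 412 CPM against 835, 828 and 759 CPM, a difference of -0.86 ± 0.15. Rps27 differed by -0.79 and Rps16 by -0.77. At the other end, Rps29 was at 273, 254 and 283 CPM in MHCII+CD11c-, above all 3 LYVE1+CX3CR1+ values by a narrow margin, and its difference of -0.18 ± 0.15 did not pass (adjusted p = 0.537). Among large subunit genes, Rpl8 differed by -0.65 and Rpl3 by -0.44. Rplp0 differed by -0.67 and Rplp2 by -0.46.

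Between the MHCII+ subsets the difference was smaller. In untreated cells 7 of 85 members were higher in MHCII+CD11c+ and 0 were lower, where 1.89% of all tested genes were higher and 1.6% lower. Unadjusted p-values under 0.05 gave 49 higher and 0 lower, with no share of all tested genes given at that threshold. DESeq2 called 26 higher and 0 lower, against 290 higher and 251 lower of all 17957 genes with counts. The median member was 0.40 and the median of all tested genes -0.01. The libraries did not overlap, with MHCII+CD11c+ higher, for 64 members, against 12.3% of all tested genes. The 7 called members were Rpl4 (0.72), Rpsa (0.66), Rpl28 (0.64), Rpl17 (0.64), Rpl11 (0.63), Rpl41 (0.59) and Rpl32 (0.55), so 6 were of the large subunit. Rpl4 was at 485, 472 and 567 CPM in MHCII+CD11c- and at 796, 857 and 852 CPM in MHCII+CD11c+, without overlap (0.72 ± 0.15, adjusted p = 0.00697). Rpsa was at 1172, 996 and 955 CPM against 1629.7, 1571 and 1733 CPM (0.66 ± 0.15, adjusted p = 0.00863). Rpl11, which with Rpl5 and 5S RNA can bind Mdm2, was at 258, 247 and 251 CPM against 411, 392 and 371 CPM. Both of these genes were separate between the groups. Rplp1 (0.10) and Rps9 (0.13) lay near 0 and did not pass. The count of 7 fell to between 1 and 3 when any 1 library was left out, to 2, 2 and 3 without MHCII+CD11c+ untreated replicates 1, 2 and 3, and to 3, 1 and 1 without MHCII+CD11c- untreated replicates 1, 2 and 3.

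**Figure D3:**
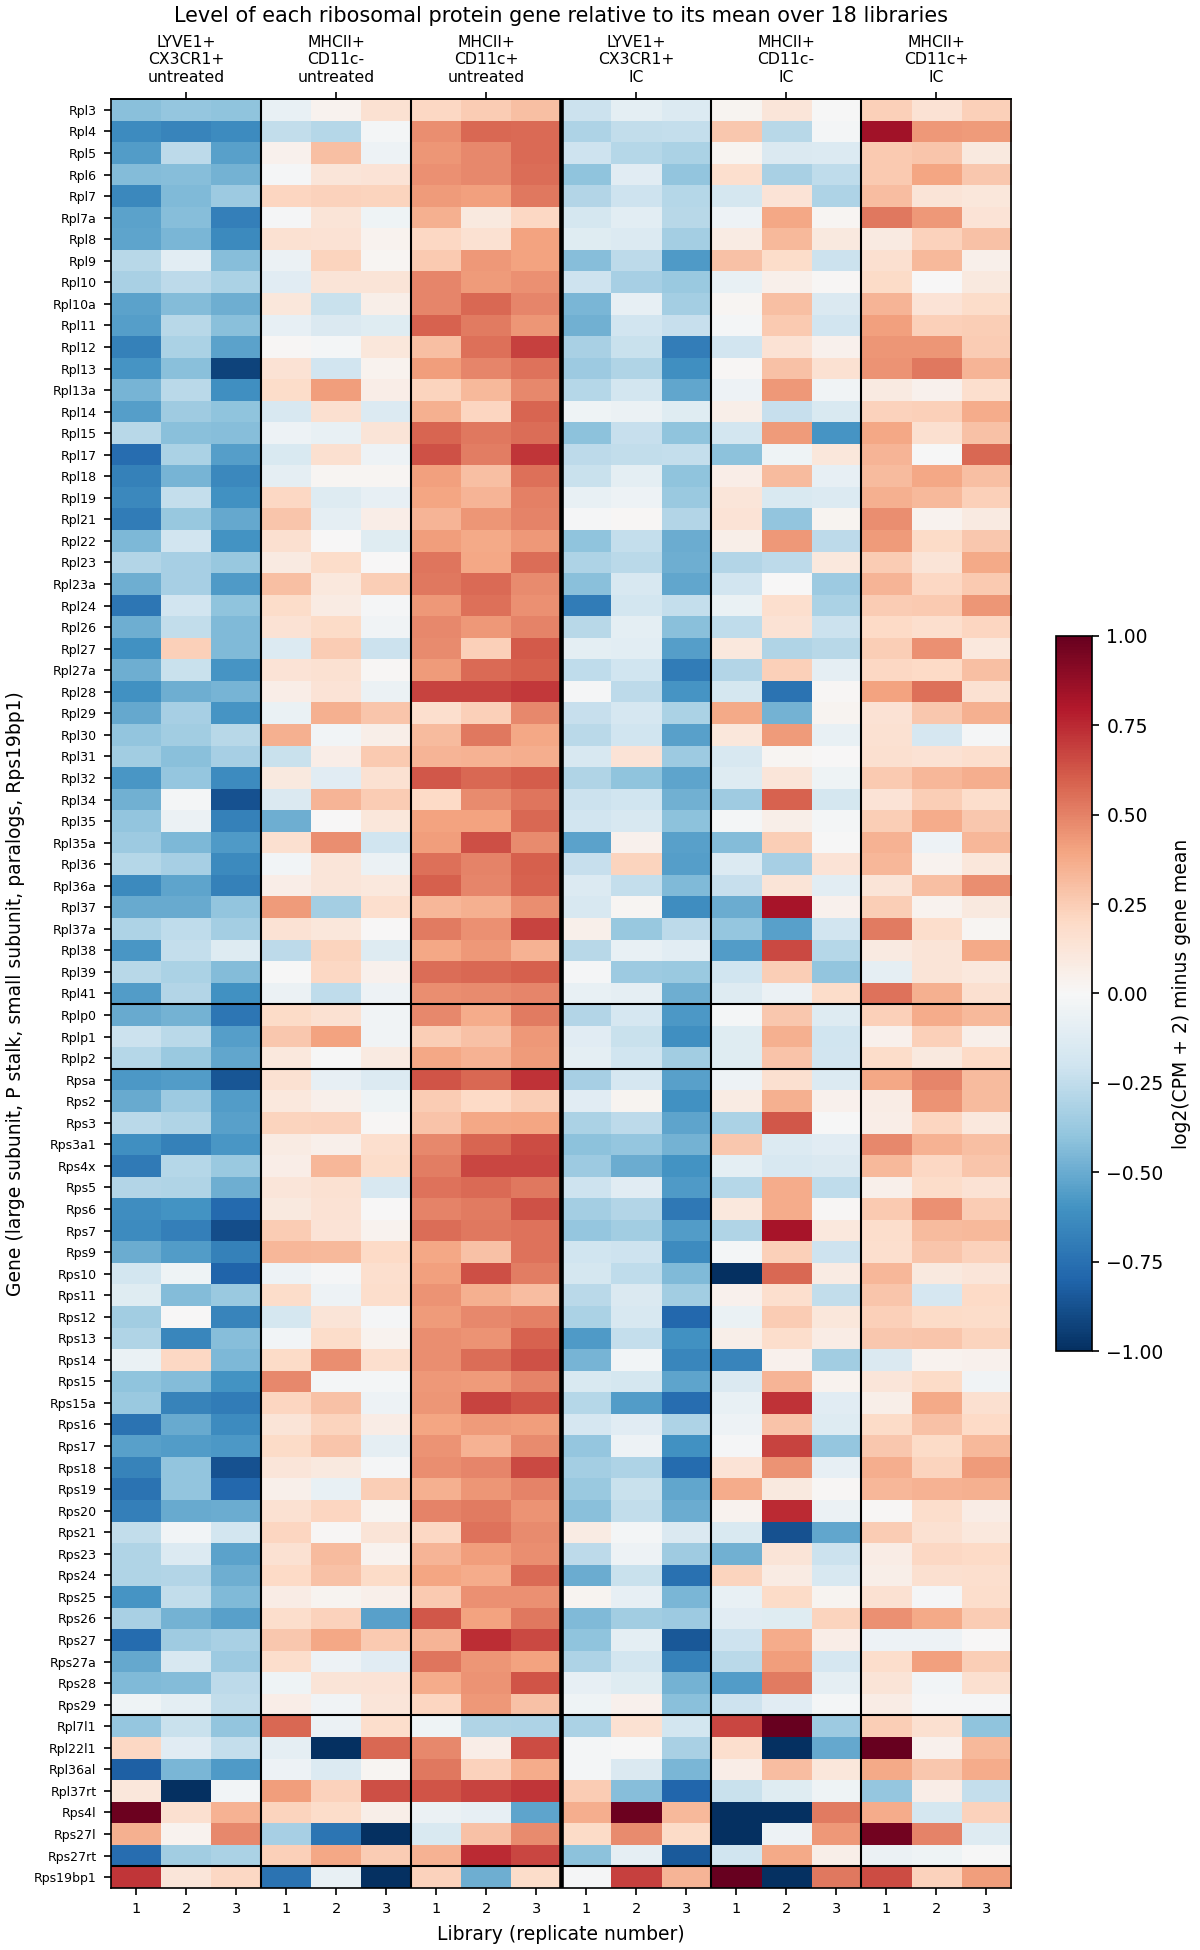
Log2 CPM of tested members (rows, grouped by class) in each of the 18 libraries (columns, grouped by subset and treatment), each gene shown relative to its own mean over the libraries. The untreated LYVE1+CX3CR1+ columns are the lowest and the untreated MHCII+CD11c+ columns the highest for most genes of both subunits, while Rps27l, Rps4l, Rpl7l1 and Rps19bp1 do not follow the pattern.

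The paralogs and copies were more varied than the core members. Rps27rt, a retrogene of Rps27, had 3555 counts in all libraries against 3573 for Rps27, with equal counts in 8 of 18 libraries and a difference of at most 4 counts in any, so the same reads appear to have been counted for both and neither value stands on its own. Rps27 itself was at 84.2, 113 and 116 CPM in untreated LYVE1+CX3CR1+ and at 184, 244 and 231 CPM in MHCII+CD11c+. Rpl36al, a copy of Rpl36a, had 2725 counts against 3539 for Rpl36a. It was at 62.7, 80.9 and 74.8 CPM in untreated LYVE1+CX3CR1+ and at 162, 132 and 145 CPM in MHCII+CD11c+, a difference of -1.01 ± 0.17 without overlap. Rpl37rt, with 645 counts against 3220 for Rpl37, differed by -1.05 ± 0.35 (adjusted p = 0.0329). Rpl36al and Rpl37rt are close in sequence to their parents, so reads may be split between them. In all, 3 of 7 tested paralogs were lower than in MHCII+CD11c+ and 2 of 7 lower than in MHCII+CD11c-.

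The other 4 tested paralogs did not pass any test in untreated cells. Rpl7l1, which acts in the assembly of ribosomes and held 11.4% of the counts of Rpl7, was at 58, 65.2 and 57.6 CPM in LYVE1+CX3CR1+, 115, 73.3 and 86.8 in MHCII+CD11c-, and 74.1, 61.8 and 61.2 in MHCII+CD11c+. The LYVE1+CX3CR1+ and MHCII+CD11c+ values overlapped, and their difference of -0.13 ± 0.26 did not pass (adjusted p = 0.81). Rps27l, a p53 target, was at 25.6, 20.1 and 28 CPM in LYVE1+CX3CR1+, 15.1, 11 and 6.13 in MHCII+CD11c-, and 17.3, 24.3 and 28 in MHCII+CD11c+. It was separate from MHCII+CD11c- with a difference of 1.20 ± 0.44 that did not pass (adjusted p = 0.0831). Rpl22l1 and Rps4l rested on at most 51 counts in a library, and their differences from MHCII+CD11c+ were -0.52 ± 0.46 and 0.85 ± 0.46. Rps19bp1 was at 16.2, 10 and 10.8 CPM in LYVE1+CX3CR1+ and at 4.65, 8.56 and 1.02 CPM in MHCII+CD11c-, with 1 to 7 counts in the latter (1.40 ± 0.67, adjusted p = 0.209).

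After IC the subsets kept their direction with fewer calls. LYVE1+CX3CR1+ cells were lower than MHCII+CD11c+ cells in 51 of 85 members and higher in 0, where 11.5% of all tested genes were lower and 8.21% higher. Unadjusted p-values under 0.05 gave 64 lower and 0 higher, with no share of all tested genes given at that threshold. DESeq2 called 58 lower and 0 higher, against 1322 lower and 916 higher of all 17957 genes with counts. The median member was -0.50 and the median of all tested genes -0.04. The call was made for 30 of 43 large subunit genes, 19 of 31 small subunit genes, 1 of 3 P stalk genes and 1 of 7 tested paralogs. Without LYVE1+CX3CR1+ IC replicates 1 and 3 the count was 29 and 22, and without MHCII+CD11c+ IC replicates 2 and 3 it was 29 and 31. Rpl13 was at 430.3, 450.2 and 362 CPM in LYVE1+CX3CR1+ and at 760.5, 803 and 702 CPM in MHCII+CD11c+, the largest difference among called members (-0.87 ± 0.15, adjusted p = 1.40e-04). Rpl4 (-0.84), Rps18 (-0.81), Rps6 (-0.77), Rpsa (-0.74) and Rplp0 (-0.65) also passed.

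Against MHCII+CD11c- cells after IC, 11 of 85 members were lower in LYVE1+CX3CR1+ and 0 higher, where 6.45% of all tested genes were lower and 3.32% higher. At an unadjusted p under 0.05 the counts were 31 lower and 1 higher, with no share of all tested genes given at that threshold. DESeq2 called 20 lower and 0 higher, against 812 lower and 384 higher of all 17957 genes with counts. Of the 11, 9 were of the small subunit, namely Rps15a (-0.72), Rps7 (-0.70), Rps20 (-0.64), Rps18 (-0.63), Rps6 (-0.60), Rps13, Rps19, Rps24 and Rps3a1, and 2 of the large subunit, with Rpl13 (-0.58) among them. Rps6 was at 454, 471 and 350.1 CPM in LYVE1+CX3CR1+ and at 619.7, 746 and 582 CPM in MHCII+CD11c-, without overlap. The median of the members was -0.29. Without the library that stood apart, MHCII+CD11c- IC replicate 2, the count was 6 and the median -0.18. Without LYVE1+CX3CR1+ IC replicates 1, 2 and 3 the count was 3, 6 and 0.

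Between the MHCII+ subsets after IC, Rpl4 was the 1 member of 85 that was higher in MHCII+CD11c+, and 0 were lower, where 1.77% of all tested genes were higher and 1.07% lower. It was at 693, 474 and 569 CPM in MHCII+CD11c- and at 1035, 779 and 772 CPM in MHCII+CD11c+, without overlap (0.57 ± 0.16, adjusted p = 0.0458). Unadjusted p-values under 0.05 gave 23 higher and 0 lower, with no share of all tested genes given at that threshold. DESeq2 called 7 higher and 0 lower, against 247 higher and 188 lower of all 17957 genes with counts. The median of the members was 0.23, and 0.33 without MHCII+CD11c- IC replicate 2, where 3 members passed. The count was also 3 without MHCII+CD11c- IC replicate 1, and 0 without MHCII+CD11c+ IC replicate 1, 2 or 3.

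The untreated and the IC comparisons share no library, but the same fit and its estimate of the spread served both. All 11 and all 51 members called between LYVE1+CX3CR1+ and the MHCII+CD11c- and MHCII+CD11c+ subsets after IC were called in the same direction in untreated cells, which is 100% of the IC calls and 23.9% and 63.8% of the untreated ones. In untreated cells 54.1% and 94.1% of all 85 members were called lower, which are the shares to set beside the 100%. The sign of the difference was the same in 81 and 83 of the 85 members. For 76 and 83 members the value after IC lay nearer to 0. Between the MHCII+ subsets the sign was the same in 75 of 85 members. Without MHCII+CD11c- IC replicate 2 the 81 became 72, the 76 became 78 and the 75 became 81. No share over all tested genes is given beside these counts of shared calls, of sign and of nearness to 0. Whether they are particular to the members therefore cannot be told from them. Whether the gap itself differed with treatment is the test of the IC responses given further on.

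Within each subset IC was compared with no treatment. In LYVE1+CX3CR1+ cells 0 of 85 members passed, where 0.464% of all tested genes did. At an unadjusted p under 0.05 edgeR gave 12 members, all with higher values after IC, against 8.71% of all tested genes in either direction. DESeq2 called 3, all higher, with Rps16 and Rpl8 among them, against 82 higher and 73 lower of all 17957 genes with counts. The median of the members was 0.13, with 70 of 85 values above 0. With each library of the subset left out in turn this median was 0.09 to 0.22. It was 0.22 without LYVE1+CX3CR1+ IC replicate 3 and 0.21 without LYVE1+CX3CR1+ untreated replicate 2. Rps16 was at 158, 187 and 171 CPM in untreated and at 236, 246 and 214 CPM in IC libraries. The groups did not overlap, and the difference was 0.43 ± 0.15 (edgeR, adjusted p = 0.275), and 0.43 with an adjusted p of 0.0229 in DESeq2. For 18 members every IC library was higher than every untreated one, against 9.6% of all tested genes. Nuclear-retained transcripts held 0.411% to 0.546% of the counts of the IC libraries, below every untreated library of the subset. Their part in the values of the members was not tested.

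In MHCII+CD11c+ cells the values after IC tended the other way. By edgeR 0 of 85 members passed, where 0.673% of all tested genes did, and 15 had an unadjusted p under 0.05, all with lower values, against 9.48% of all tested genes. DESeq2 called 2, both lower, with Rpl10 among them, against 99 higher and 48 lower of all 17957 genes with counts. The median member was -0.23, with 77 of 85 values below 0, and for 54 members every IC library was lower than every untreated one, against 9.94% of all tested genes. Rpl10, which acts in the joining of the subunits, was at 875, 836 and 858 CPM in untreated and at 714, 624 and 669 CPM in IC libraries. Its groups did not overlap and differed by -0.36 ± 0.13 (edgeR, adjusted p = 0.295). Rps27, with the caveat on shared reads, was at 184, 244 and 231 CPM against 140.4, 140.0 and 146 CPM (-0.63 ± 0.19, adjusted p = 0.166).

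Genes of the sort moved with IC in the MHCII+CD11c+ libraries too. Lyve1, which encodes a hyaluronan receptor and was highest in the LYVE1+CX3CR1+ subset, was at 365, 439 and 329 CPM in untreated and at 1001, 1054 and 1232 CPM in IC libraries, without overlap. H2-Aa, which encodes a chain of MHCII, was at 3811, 3950 and 4389 CPM against 3306, 2759 and 3348 CPM, also without overlap. H2-Eb1, with lower values after IC, and Ly6c2, with higher ones, were separate as well, and Cx3cr1, H2-Ab1 and Itgax overlapped. Nuclear-retained transcripts held 0.560% to 0.675% of the counts after IC, below every untreated library of the subset. Summed dendritic cell markers, in CPM of the library total, were 232 to 420 in untreated and 180 to 205 in IC libraries. In the other subsets they were lower after IC as well, again without overlap. They went from 109 to 155 to 52.5 to 97.6 in MHCII+CD11c-, and from 7.22 to 9.94 to 2.09 to 3.90 in LYVE1+CX3CR1+. In LYVE1+CX3CR1+ cells Lyve1 was higher after IC too, at 3219, 3172 and 3555 CPM against 2171, 2382 and 2563 CPM in untreated libraries. H2-Aa (5 to 13 counts) and H2-Ab1 were also higher there without overlap, and Cx3cr1, H2-Eb1, Itgax and Ly6c2 overlapped. The part of these shifts in the values of the members was not tested.

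In MHCII+CD11c- cells 0 of 85 members passed in edgeR, where 1.06% of all tested genes did. At an unadjusted p under 0.05 there were 9 members, 8 of them with lower values, against 14.6% of all tested genes. DESeq2 called 1, Rps21, lower, against 141 higher and 129 lower of all 17957 genes with counts. The median member was -0.07, and -0.16 without MHCII+CD11c- IC replicate 2 and -0.04 without replicate 1. With library totals in place of scaling factors it was 0.0045, so its direction is not settled. Rps21 was at 186, 161 and 176 CPM in untreated and at 144, 86.6 and 111 CPM in IC libraries, the lowest of which was the library that stood apart, with 23 counts (-0.60 ± 0.19, edgeR, adjusted p = 0.118). For 9 members every IC library was lower than every untreated one, against 8.56% of all tested genes. Summed neutrophil markers were 1524 to 3786 CPM in MHCII+CD11c- and 943 to 2222 CPM in MHCII+CD11c+ after IC, and 18.9 to 156 CPM in LYVE1+CX3CR1+, with 9 of 9 detected in each. In MHCII+CD11c+ every IC library lay above every untreated one, and in the other subsets the ranges overlapped. Lyve1 was at 1841, 516 and 2290 CPM in the MHCII+CD11c- IC libraries, against the 702 to 882 CPM of untreated ones, with the library that stood apart below that range. H2-Aa was at 2956, 2828 and 3067 CPM in untreated and at 1875, 1386 and 1665 CPM in IC libraries of this subset. Itgax rose without overlap, from 2.33, 2.44 and 13.3 CPM in its untreated libraries (2 to 13 counts) to 70.6, 33.9 and 31.0 CPM after IC. H2-Ab1 and H2-Eb1, with lower values after IC, and Ly6c2, with higher ones, were also separate, and Cx3cr1 overlapped. The part of these markers in the values of the members was not tested.

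**Figure D4:**
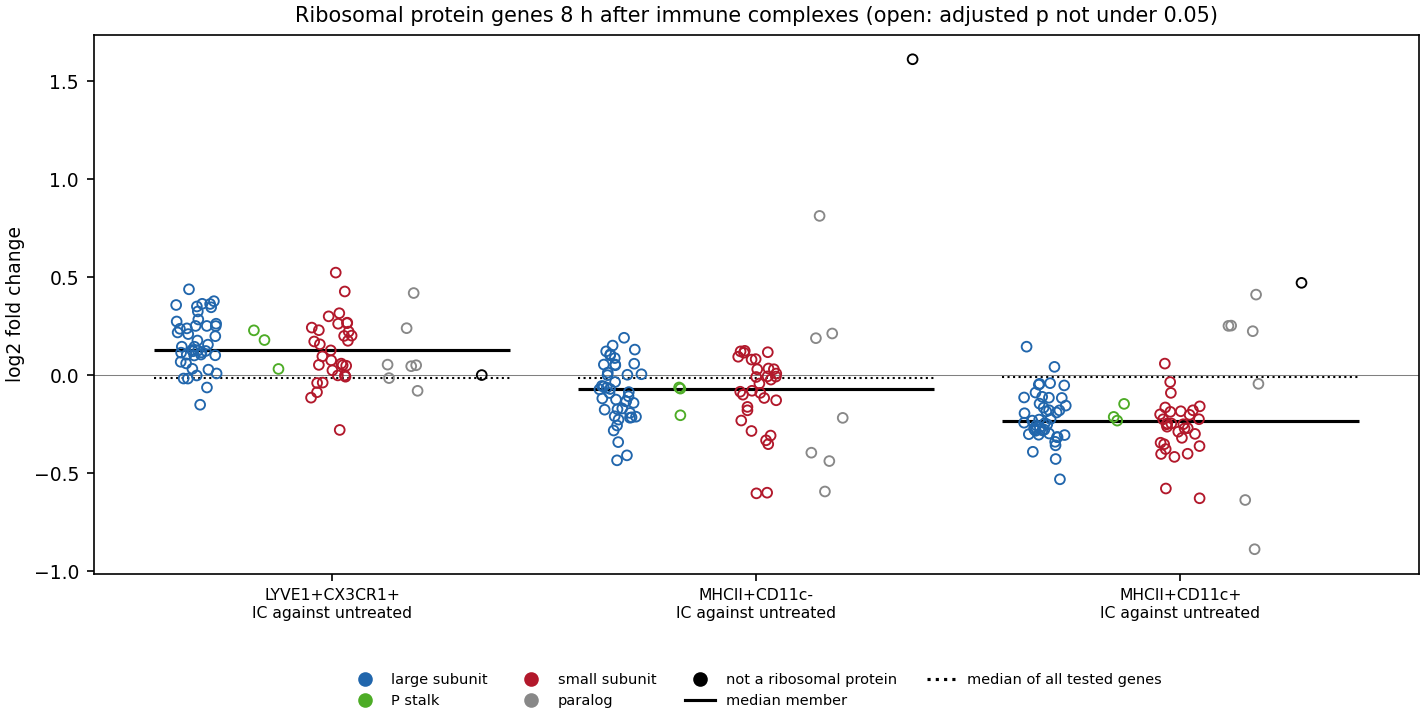
Log2 fold change of each of the 85 tested members after IC against untreated, by subset, one point per gene and coloured by class. The solid line is the median member and the dotted line the median of all tested genes. All points are open since 0 members passed in edgeR, and the medians are 0.13 in LYVE1+CX3CR1+, -0.07 in MHCII+CD11c- and -0.23 in MHCII+CD11c+.

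The difference between the responses was tested as an interaction. Between LYVE1+CX3CR1+ and MHCII+CD11c+ the response of the median member differed by 0.37, with 81 of 85 values above 0. By edgeR 0 members passed, where 0.00948% of all tested genes did, and 25 had an unadjusted p under 0.05, all higher in LYVE1+CX3CR1+, against 4.49% of all tested genes. DESeq2 called 2, with Rps16 among them (0.60, adjusted p = 0.0491), against 5 higher and 7 lower of all 17957 genes with counts. Rpsa differed in its response by 0.56 ± 0.20 and Rps6 by 0.45 ± 0.21. The untreated Rpsa values given above compare with 836, 937 and 720.3 CPM in LYVE1+CX3CR1+ and 1376, 1477 and 1309 CPM in MHCII+CD11c+ after IC, so that the former overlapped no untreated LYVE1+CX3CR1+ value and the latter no untreated MHCII+CD11c+ value.

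Between LYVE1+CX3CR1+ and MHCII+CD11c- the median difference in response was 0.24, and 0.35 without MHCII+CD11c- IC replicate 2. By edgeR 0 members passed, where 0.0% of all tested genes did, and 10 had an unadjusted p under 0.05, against 6.52%. DESeq2 called 1, against 10 higher and 3 lower of all 17957 genes with counts. Between MHCII+CD11c+ and MHCII+CD11c- the median was -0.15, and -0.07 without MHCII+CD11c- IC replicate 2. By edgeR 0 members passed, where 0.00948% of all tested genes did, and 1 had an unadjusted p under 0.05, against 6.09%. DESeq2 called 0, against 0 higher and 1 lower of all 17957 genes with counts. These 3 tests share groups with one another and with the tests within each subset, so their values are not separate pieces of support.

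Other parts of the ribosome that the rule on symbols does not take were measured in the same fit. Fau encodes a ribosomal protein fused to a ubiquitin-like protein, and Gnb2l1 encodes RACK1 of the small subunit. Gnb2l1 was at 408, 430.0 and 354 CPM in untreated LYVE1+CX3CR1+, 758, 671 and 670.1 in MHCII+CD11c-, and 817, 744 and 849.7 in MHCII+CD11c+. LYVE1+CX3CR1+ was below both without overlap, by -0.82 (adjusted p = 0.00135) and -1.02 (adjusted p = 3.74e-05). Fau was also lower, by -0.60 (adjusted p = 0.0199) and -0.83 (adjusted p = 5.85e-04).

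Of 32 translation factors and other genes whose mRNAs are known to carry a TOP tract, 20 (62.5%) were lower in untreated LYVE1+CX3CR1+ than in MHCII+CD11c+ and 3 (9.38%) lower than in MHCII+CD11c-, with medians of -0.60 and -0.28 and 0 higher. The shares of all tested genes were 12.4% and 7.12%, so the second lay near the background. Among them were the elongation factor Eef2 (-0.82 and -0.51) and, against MHCII+CD11c+, Eef1a1 (-0.56), Npm1 (-0.79) and Tpt1 (-0.65). After IC 11 (34.4%) and 2 (6.25%) of the 32 were lower, where 11.5% and 6.45% of all tested genes were. Of 59 tested genes of ribosome biogenesis, 5 (8.47%) were lower than in untreated MHCII+CD11c+, a smaller share than the 12.4% of all tested genes. Among them were Fbl, Nop56 and Nop58, and the median was -0.25. After IC 11 (18.6%) were lower, against 11.5% of all tested genes, and 1 higher, with a median of -0.48. Nucleolin, encoded by Ncl, passed in the second comparison (-0.64) and not in the first (-0.36, adjusted p = 0.14).

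Lists of other housekeeping complexes had few calls, to be read against 12.4% of all tested genes lower and 9.48% higher than in untreated MHCII+CD11c+. Of 75 tested mitochondrial ribosomal protein genes, 2 were lower in untreated LYVE1+CX3CR1+ than in MHCII+CD11c+ and 0 than in MHCII+CD11c-, with medians of 0.05 and 0.12. Of 71 nuclear genes of oxidative phosphorylation, 1 was lower than in MHCII+CD11c+ and 1 higher than in MHCII+CD11c-. Of 14 proteasome core genes, 2 were lower than in MHCII+CD11c+, with a median of -0.18, and 0 than in MHCII+CD11c-. Of 20 tested genes of ribosomal RNA transcription, 1 was higher and 1 lower than in MHCII+CD11c+. Of 29 genes of mTOR and Myc control, 4 were higher and 1 lower than in MHCII+CD11c+, among them Eef2k, the kinase that inhibits Eef2, which was higher, and Eif4ebp2, a repressor of cap-dependent translation, which was lower. Rps6kb1, which encodes the S6 kinase, did not pass in untreated cells (-0.30 ± 0.33). After IC, Larp1 was lower in LYVE1+CX3CR1+ than in MHCII+CD11c+ (-1.44 ± 0.21, adjusted p = 8.84e-06) and than in MHCII+CD11c- (-0.77 ± 0.22, adjusted p = 0.026). Myc was lower than in MHCII+CD11c- after IC (-1.54 ± 0.41, adjusted p = 0.0155), but these groups overlapped. It was at 12.4, 7.91 and 24.0 CPM against 47.1, 22.6 and 53.1 CPM, with 6 counts in the library that stood apart. Against MHCII+CD11c+ after IC Myc did not pass (edgeR, adjusted p = 0.114). Nor did it pass in untreated cells, against MHCII+CD11c- (adjusted p = 0.271) or MHCII+CD11c+ (adjusted p = 0.230).

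**Figure D5:**
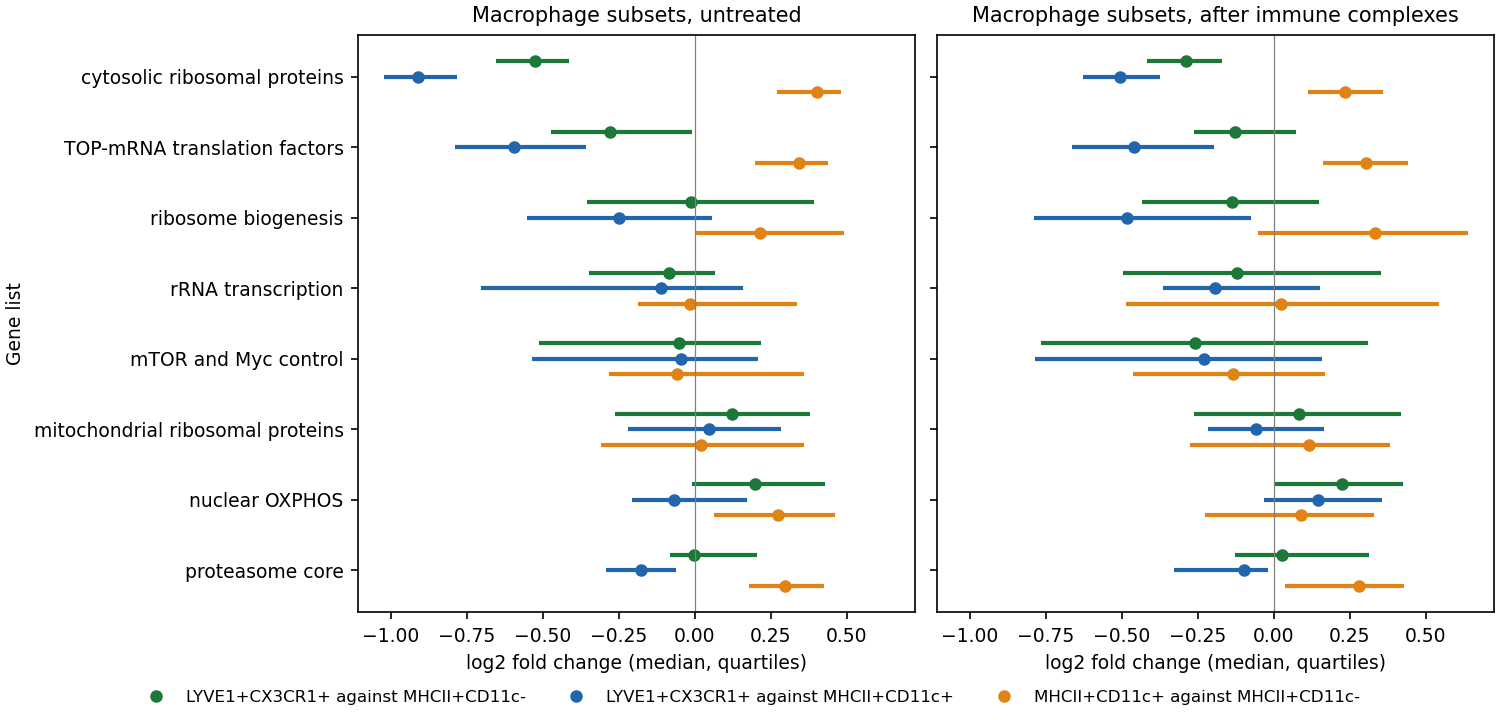
Median (point) and quartiles (line) of the log2 fold changes of gene lists (y axis) between subsets, in untreated cells and after IC. The cytosolic ribosomal proteins have untreated medians of -0.53, -0.91 and 0.40, the translation factors with TOP tracts -0.28, -0.60 and 0.34, and the mitochondrial ribosomal proteins lie near 0.

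Members with and without a tract at the RefSeq start are given side by side. Between untreated LYVE1+CX3CR1+ and MHCII+CD11c+ cells, 26 of 27 tested members with a tract were lower, with a median of -0.84, and 34 of 37 matched and tested members without one, with a median of -0.94. The member with a tract that did not pass was Rpl22l1. Against MHCII+CD11c- the counts were 17 of 27 and 17 of 37, with medians of -0.54 and -0.51. Rps6, Rpl28 and Rps18, whose tracts are printed above, and Rpsa, whose window holds none, were all among the members with differences beyond -1 on the log2 scale. A difference between the groups of members was not tested.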

How the data were processed

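Bulk RNA of 18 libraries in 6 groups was made by the authors with a SMARTer stranded total RNA pico kit, and each library was a pool of 3 mice. The authors trimmed the reads (Trim Galore), aligned them to mm10 with HISAT2 and assigned them with featureCounts of Rsubread, and the deposited values are raw counts per gene symbol. Versions, annotation, strand setting and the handling of multiply matching reads are not given in the sources used here, so near-identical and overlapping genes are uncertain. Samples from Fcgr2b-/- mice are outside the set used here. A combined table with the same values was not used.

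Groups were taken from the sample labels. R 4.3.3 and edgeR 4.0.16 gave TMM factors, CPM, log2 CPM (prior count 2) and log2 fold changes (the default prior count of the fit). filterByExpr (minimum count 10, total 15) kept 10550 genes, 85 of them members. The quasi-likelihood test was fitted on the 6 groups together. P-values were adjusted by Benjamini and Hochberg over all tested genes within each of 12 comparisons (threshold 0.05). The script was tested on simulated data. Replicates were compared pairwise and differed beyond sampling noise (chi-square per gene at least 3.42). Nothing says more of how the 3 pools of a group are related, so p-values measure the spread between them. Precision follows depth, which was 245903 to 2172358 counts per library.

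Alternatives were DESeq2 1.42.0, 1 surrogate variable of sva 3.50.0, other scaling factors, other filters, only the libraries compared, a replicate block and each library left out. The counts of order and sign without MHCII+CD11c- IC replicate 2 were added after the data were seen. Length is that of the shortest principal GENCODE transcript. Promoter windows are from RefSeq.

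Named were all paralogs, in each comparison the 5 called members with the largest and the 5 with the smallest difference and the 3 farthest above and below the median member, the 5 highest and 5 lowest by level, and a fixed list (Rps6, Rplp0, Rpl3, Rpsa, Fau, Gnb2l1, Rps6kb1, Myc, Larp1, Npm1, Ncl, Eef1a1, Eef2, Tpt1). Rps13, Rps19, Rps24, Rpl17, Eef2k, Eif4ebp2, Fbl, Nop56 and Nop58 and members called by DESeq2 were also named where a count was small, after their values were seen. Some genes that the rule takes are not reported here by name. The members and lists were chosen with earlier results of these data known.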

Additional observations from a re-analysis of the deposited data

How the results depend on the processing

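The median IC response of MHCII+CD11c- cells changed sign with library totals, from -0.07 to 0.0045. No other median of the members and no direction of a named member that passed was reversed by an alternative, and the 0 higher calls in LYVE1+CX3CR1+ held under each one. The count of 80 between untreated LYVE1+CX3CR1+ and MHCII+CD11c+ cells stayed at 74 to 77 with 1 library left out. Other counts depended on the test, and the cause was not tested. Against untreated MHCII+CD11c- cells the 46 lower members became 27 with no filter on low counts and 19 to 35 with 1 library left out. For MHCII+CD11c+ against MHCII+CD11c- the untreated count of 7 became 18 with a surrogate variable, 26 in DESeq2 and 1 to 3 with 1 library left out, and the IC count of 1 became 3 with a surrogate variable, 7 in DESeq2, 3 when 10 counts were required in each library, 0 with DESeq2 size factors, with TMM without the members, with library totals and with only the libraries compared, and 0 to 3 with 1 library left out. For LYVE1+CX3CR1+ against MHCII+CD11c- after IC the 11 became 20 in DESeq2, 4 with no filter, 0 with only the libraries compared and 0 to 13 with 1 library left out. Against MHCII+CD11c+ after IC the 51 became 33 with no filter and 22 to 39 with 1 library left out. The IC response, at 0 calls, gave 3 calls in DESeq2 and 1 each with a surrogate variable, with 10 counts required in each library and with only the libraries compared for LYVE1+CX3CR1+. It gave 1 in DESeq2 and 1 with 10 counts required in each library for MHCII+CD11c-, and 2 in DESeq2 and 1 with only the libraries compared for MHCII+CD11c+. The differences of responses gave 1 (against MHCII+CD11c-) and 2 (against MHCII+CD11c+) in DESeq2. Of 720 values of single named members under the alternatives, 537 stayed on their side of the threshold and 183 lost their call, 134 of them with 1 library left out.

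Replicate numbers are shared between groups but mark no known shared source. Deviations of same-numbered libraries of the same treatment correlated by -0.046 to 0.13 (mean 0.046, 18 pairs). With a replicate block the counts in the order untreated LYVE1+CX3CR1+ against MHCII+CD11c-, against MHCII+CD11c+ and MHCII+CD11c+ against MHCII+CD11c- were 48, 80 and 10, and after IC 12, 55 and 1, and the IC responses and their differences stayed at 0.

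The share of counts on the members moved with the denominator. Without Rn45s the untreated means were 2.36%, 3.43% and 4.28% for LYVE1+CX3CR1+, MHCII+CD11c- and MHCII+CD11c+, and the IC means 2.58%, 3.42% and 3.72%. Without nuclear-retained transcripts as well they were 2.39%, 3.48% and 4.32%, and 2.60%, 3.46% and 3.75%, in the same order of subsets. Depth limits the low members most, since Rpl22l1, Rps4l and Rps19bp1 rested on at most 51 counts in a library, and a difference was not detectable there.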
